A study of Homo sapiens with 9 samples.

Results

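The genes described here are those that stood higher, and at nearly the same level, with both forms of p65 that were put back into p65-knockout cells. They number 80 of 19951 protein-coding genes, in a table of 58735 genes. The cells were HEK293A, an adherent derivative of the human embryonic kidney line HEK293, with the p65 gene knocked out. They received a plasmid for p65 2CS, a plasmid for p65 WT or an empty vector, and 24 h later TNF, an inflammatory cytokine, at 20 ng/mL for 2 h. The knockout and the TNF were thus common to all 3 groups, and each group had 3 libraries. The series concerns palmitoylation of p65, and the labels do not spell out what 2CS stands for. They give neither the share of cells that took up a plasmid, nor the number of knockout clones, nor the origin of the 3 libraries of a group. Should these have come from a single culture, the p-values reflect technical spread alone.

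Each gene's reads were set over the library's total count and given as CPM, the usual scaling to a common total. A gene was a member if its mean reached at least 2 CPM and at least 1.4 times the vector mean with each p65 form, if neither form's mean was under 0.8 times the other's, and if all 6 p65 libraries lay above all 3 vector libraries. RELA itself, the NF-kB subunit genes REL and NFKB1 and 3 other genes were left out by name. Of these 6, 3 met the numeric limits and 5 were raised by both forms, so the counts given here exclude them. The members were thus selected on their CPM in all 3 groups, so their levels, folds and ratios are given as a description, with no test. Summed over the 80 members, expression came to 2315, 2385 and 2292 CPM with p65 2CS and 2312, 2270 and 2368 CPM with p65 WT, against 1050.4, 1060.4 and 1046 CPM with vector. The 2 p65 groups overlapped in this sum.

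p65, encoded by RELA, is the subunit of the transcription factor NF-kB that carries a strong activation domain. In resting cells inhibitor proteins of the IkB family hold it in the cytoplasm. TNF leads, through receptor-bound kinases and ubiquitin ligases, to the destruction of these inhibitors, and p65 dimers then bind kB motifs in promoters and enhancers. Known targets include chemokines, adhesion molecules, survival genes and the inhibitors themselves, which form a negative feedback.

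Library totals were 17146134 to 25068515 counts with p65 2CS, 15989601 to 16507689 with p65 WT and 17923114 to 20162267 with vector. RELA RNA averaged 25559 ± 1450 CPM with p65 2CS and 8838 ± 895 CPM with p65 WT, against 68.5 ± 1.78 CPM with vector (SD, n = 3 each), so the p65 2CS cells held 2.89 times the RELA RNA of the p65 WT cells. Equal levels of a member therefore stood beside unequal levels of the RNA for p65 itself, and the part of this difference in the results was not tested. In whole-culture RNA, fewer cells with a plasmid and less RNA per cell cannot be told apart. NEFL, a neurofilament gene that HEK293 cells are known to express, averaged 825 CPM with p65 2CS, 827 CPM with p65 WT and 909.8 CPM with vector, and the kidney tubule markers UMOD and AQP2 had no read in any library. SLC12A1 and SLC34A1, also tubule markers, had 97 and 9 reads in all 9 libraries. Of the list of 16 nephron and neural markers 13 were tested. With p65 2CS 3 (23.1%) were called higher than vector, beside 12.1% of all genes tested, and 3 (23.1%) lower, beside 11.4%. With p65 WT 5 (38.5%) were called higher than vector, beside 16.4%, and 2 (15.4%) lower, beside 12.5%. Between the forms 6 (46.2%) were called lower with p65 2CS than with p65 WT, beside 17.9%, and 0 higher, beside 13.4%. NPHS1, the podocyte protein nephrin, averaged 4.30 CPM with p65 2CS and 41.0 CPM with p65 WT, against 0.212 CPM with vector. SIX2, a factor of nephron progenitors, averaged 13.6 CPM with p65 2CS and 39.0 CPM with p65 WT, against 9.67 CPM with vector. CDH5, the endothelial cadherin and 1 of 9 fibroblast and endothelial markers, averaged 2.39 CPM with p65 2CS and 10.3 CPM with p65 WT, against 0.0992 CPM with vector. On that list VWF averaged 9.41, 24.7 and 7.31 CPM with p65 2CS, p65 WT and vector. KDR averaged 0.651, 0.817 and 0.944 CPM in the same order, and PECAM1 had 11 reads in all 9 libraries. Of the 9 markers 6 were tested. With p65 2CS 2 (33.3%) were called higher than vector and 1 (16.7%) lower, and with p65 WT 3 (50%) higher and 0 lower. Between the forms 4 (66.7%) were called lower with p65 2CS and 0 higher. NPHS1, SIX2 and CDH5 were raised by both forms with a ratio under 0.8 and are not members, and the part of the marker lists in the results was not tested. The summed level of 8 leukocyte markers was 5.16 to 5.48 CPM with p65 2CS, 5.07 to 6.18 CPM with p65 WT and 3.89 to 4.13 CPM with vector, and PTPRC, the leukocyte common antigen, had 1 read in all 9 libraries.

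Promoter sequences from RefSeq (GRCh38.p14, 250 bases before to 50 bases after a gene's start) were available for 56 of the 80 members, and 13 of these had a match to the 10-base kB consensus, searched on both strands, in at least 1 entry. The 13 are genes, and 17 of the 56 had more than 1 entry. Counted by entry, a match was held by 14 of the members' 87. By the same count it was held by 5.91% of all 35116 promoters, and by 6.85% of those of protein-coding genes tested. With 70% of members matched, below the 80% such a check needs, a comparison of the members' share is void and none is drawn. Promoters of 4 members from the NF-kB and innate immune pathways were picked because they hold a match, and are shown because the motif bears on how p65 is known to bind, each 5′ to 3′ on the strand of its gene, with the kB match in capitals. In the TNFRSF9 and NFKBIB entries 2 matches, 1 on each strand, overlap in an 11-base run. The first matched base lies 74 bases before the start in TNFRSF9 (chr1:7940790-7941089, minus strand), 28 in NFKBIB (chr19:38899719-38900018, plus strand), 97 in CFLAR (chr2:201118466-201118765, plus strand) and 120 in TICAM1 (chr19:4831663-4831962, minus strand). A match was held by 1 of the 4 CFLAR entries and 1 of the 2 NFKBIB entries, and by no entry of TLR5, IRAK2, TIFA and BIRC2, members of the same pathways. A match is a description of the letters and not a site shown to be bound.
TNFRSF9: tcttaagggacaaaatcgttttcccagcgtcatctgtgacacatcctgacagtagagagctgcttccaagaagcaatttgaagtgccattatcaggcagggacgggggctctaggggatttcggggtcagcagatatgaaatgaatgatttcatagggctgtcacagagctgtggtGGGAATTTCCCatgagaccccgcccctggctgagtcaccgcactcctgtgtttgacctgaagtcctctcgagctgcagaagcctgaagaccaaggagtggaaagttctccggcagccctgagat
NFKBIB: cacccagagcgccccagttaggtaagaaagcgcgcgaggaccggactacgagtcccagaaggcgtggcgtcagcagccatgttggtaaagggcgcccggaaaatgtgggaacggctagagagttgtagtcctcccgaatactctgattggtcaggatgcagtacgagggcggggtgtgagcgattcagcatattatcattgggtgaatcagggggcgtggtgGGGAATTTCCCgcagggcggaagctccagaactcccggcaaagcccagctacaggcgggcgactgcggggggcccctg
CFLAR: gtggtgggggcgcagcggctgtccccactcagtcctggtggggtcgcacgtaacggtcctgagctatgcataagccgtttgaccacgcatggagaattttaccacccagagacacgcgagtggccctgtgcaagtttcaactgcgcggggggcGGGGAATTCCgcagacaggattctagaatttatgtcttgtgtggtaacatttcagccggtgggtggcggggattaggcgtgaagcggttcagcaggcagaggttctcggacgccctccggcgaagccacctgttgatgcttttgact
TICAM1: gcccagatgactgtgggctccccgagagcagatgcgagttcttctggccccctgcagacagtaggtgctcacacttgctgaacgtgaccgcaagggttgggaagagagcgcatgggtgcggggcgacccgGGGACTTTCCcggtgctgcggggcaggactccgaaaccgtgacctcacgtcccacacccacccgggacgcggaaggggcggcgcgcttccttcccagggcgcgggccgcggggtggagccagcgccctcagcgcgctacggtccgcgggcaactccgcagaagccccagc

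SLC12A7, which encodes the potassium-chloride cotransporter KCC4 (chromosome 5, 1050376 to 1112035, minus strand), drew the most reads among the members. It had 755, 769.8 and 717 CPM with p65 2CS and 699, 705 and 737 CPM with p65 WT, against 112, 106 and 111 CPM with vector. Both p65 groups lay far above vector and overlapped each other, with folds over vector of 6.82 with p65 2CS and 6.51 with p65 WT. The ratio of p65 2CS to p65 WT on TMM-scaled libraries was 1.03 (95% interval 0.988 to 1.07). Ratios given with an interval are on this scale, and other ratios are of mean CPM, which the rule used, unless stated. This gene made up a large share of the summed level, which without it was 1560, 1615 and 1575 CPM with p65 2CS and 1613, 1565 and 1631 CPM with p65 WT, against 939, 954 and 935 CPM with vector. With or without SLC12A7 the 2 p65 groups overlapped in the sum and lay above vector.

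TNFRSF9, the T-cell costimulatory receptor CD137, had 15.4, 15.8 and 13.3 CPM with p65 2CS and 18.0, 15.3 and 15.8 CPM with p65 WT, against 3.14, 2.08 and 2.12 CPM with vector. Its folds over vector were 6.07 with p65 2CS and 6.68 with p65 WT, the second largest of the members by the smaller of the 2 folds. PTAFR, the receptor for platelet-activating factor, came next with 1.750, 2.07 and 2.21 CPM with p65 2CS and 2.29, 2.13 and 2.48 CPM with p65 WT, against 0.432, 0.595 and 0.446 CPM with vector. Both receptor genes showed overlapping p65 groups and a wide gap to vector, but PTAFR lay just above the 2 CPM limit and its interval for p65 2CS over p65 WT, 0.608 to 1.22, reached past the window on the low side. TLR5, the receptor for bacterial flagellin, had 3.09, 2.63 and 2.95 CPM with p65 2CS and 2.53, 3.75 and 3.57 CPM with p65 WT, against 1.35, 0.893 and 1.28 CPM with vector. The TLR5 groups with p65 also overlapped.

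**Figure D1:**
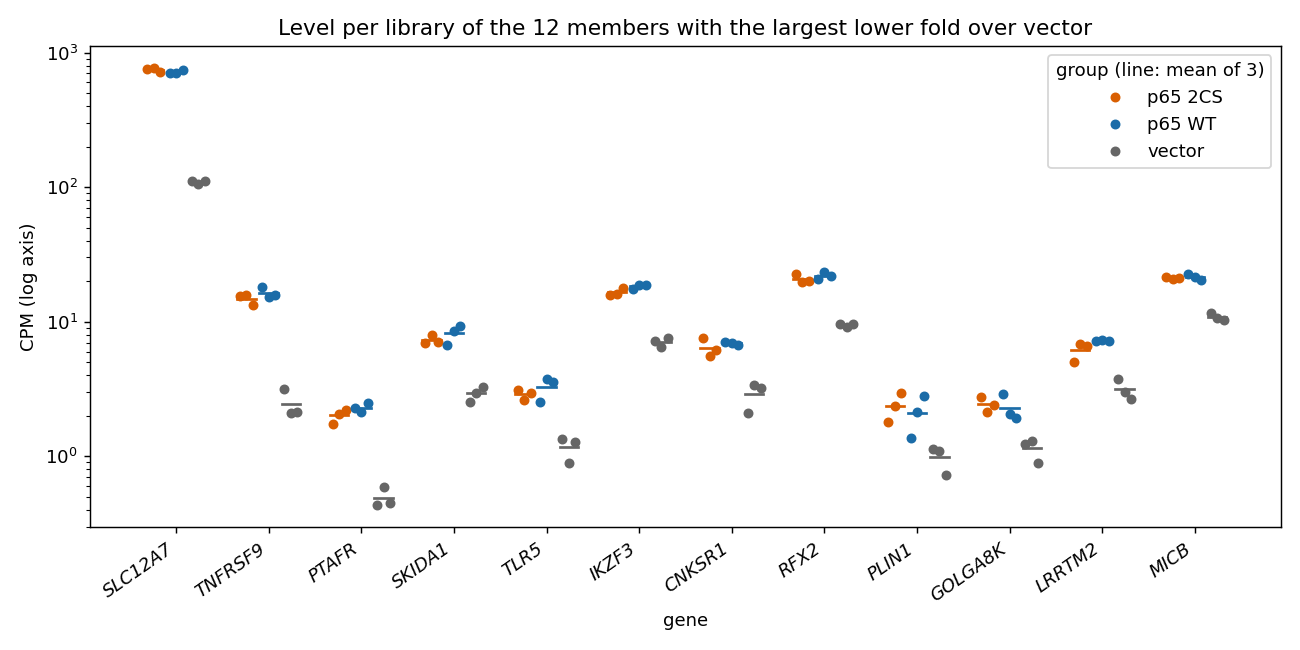
CPM on a log axis in each library for the 12 members with the largest folds over vector (the smaller fold of the 2 forms), left to right in that order, with p65 2CS, p65 WT and vector side by side. Points are libraries and short lines are means of 3; in each gene all p65 points lie above all vector points, and only LRRTM2 has its p65 2CS and p65 WT points apart.

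Several members belong to the signalling chains that lead to NF-kB or limit it. NFKBIB encodes IkB-beta, an inhibitor that holds NF-kB dimers in the cytoplasm, and had 74.2, 67.8 and 68.4 CPM with p65 2CS and 69.1, 66.6 and 72.6 CPM with p65 WT, against 46.3, 46.0 and 40.2 CPM with vector. Its p65 libraries interleaved, and the ratio between the forms was 0.988 (95% interval 0.919 to 1.06) on TMM-scaled libraries and 1.01 on mean CPM. RIPK2, a kinase downstream of the NOD receptors, had 30.2, 30.7 and 30.0 CPM with p65 2CS and 28.3, 26.7 and 29.7 CPM with p65 WT, against 18.7, 21.1 and 18.7 CPM with vector. In RIPK2 the p65 2CS libraries all lay above the p65 WT libraries, by less than 1 CPM at the nearest pair. The adaptor genes TICAM1 (TRIF, used by TLR3 and TLR4), IRAK2 (used by Toll-like and interleukin-1 receptors) and TIFA (which binds TRAF proteins) were also members. TICAM1 averaged 29.7 ± 1.82 CPM with p65 2CS and 26.5 ± 1.81 CPM with p65 WT, against 17.2 ± 0.484 CPM with vector (SD, n = 3). TIFA averaged 17.8 ± 1.42 CPM with p65 2CS and 19.6 ± 0.227 CPM with p65 WT, against 10.5 ± 0.644 CPM with vector, and its p65 2CS libraries all lay below its p65 WT libraries. IRAK2 had means of 4.51 CPM with p65 2CS, 4.17 CPM with p65 WT and 2.52 CPM with vector. This grouping of TLR5, TICAM1, IRAK2 and TIFA by textbook role was made after their values were seen.

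Genes of cell survival formed the largest set of members on any gene list used here, with 3 genes. CFLAR encodes c-FLIP, which blocks caspase-8 at death receptors, and had 48.1, 52.9 and 49.6 CPM with p65 2CS and 59.2, 51.9 and 52.5 CPM with p65 WT, against 28.3, 30.4 and 28.0 CPM with vector. BIRC2 encodes cIAP1, a ubiquitin ligase of the TNF receptor complex, and had 55.8, 58.4 and 55.1 CPM with p65 2CS and 64.5, 59.1 and 63.4 CPM with p65 WT, against 36.6, 39.9 and 36.9 CPM with vector. IER3, an early response gene linked to survival, had 81.9, 89.9 and 85.5 CPM with p65 2CS and 97.9, 95.7 and 97.8 CPM with p65 WT, against 51.2, 54.9 and 55.2 CPM with vector. In BIRC2 and IER3 the p65 2CS libraries all lay below the p65 WT libraries, while in CFLAR they overlapped. The ratio of p65 2CS to p65 WT was 0.905 (95% interval 0.834 to 0.982) for CFLAR, 0.889 (95% interval 0.826 to 0.956) for BIRC2 and 0.868 (95% interval 0.817 to 0.921) for IER3.

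Among secreted factors, the monocyte chemoattractant CCL2 had 11.6, 11.0 and 10.0 CPM with p65 2CS and 11.9, 11.4 and 14.2 CPM with p65 WT, against 6.59, 6.25 and 6.53 CPM with vector. Its p65 groups overlapped between 11.4 and 11.6 CPM. BMP2, a bone morphogenetic protein, had 61.1, 60.3 and 57.1 CPM with p65 2CS and 49.9, 50.3 and 49.7 CPM with p65 WT, against 29.1, 26.3 and 29.7 CPM with vector. The BMP2 groups did not overlap, and p65 2CS stood above p65 WT with a ratio of 1.17 (95% interval 1.08 to 1.26). MICB, a stress ligand of the natural killer cell receptor NKG2D, had 21.4, 20.7 and 20.9 CPM with p65 2CS and 22.6, 21.5 and 20.3 CPM with p65 WT, against 11.7, 10.7 and 10.2 CPM with vector. Its p65 groups overlapped and lay above vector.

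Of the 80 members 21, or 26.25%, carried a transcription factor family in the deposited annotation, against 11.0% of the 164 genes that met every other limit of the rule but had a p65 2CS over p65 WT ratio under 0.8 and 9.09% of all 14325 protein-coding genes tested. These shares are a description, with no test of their difference, and the share was noticed in the data. Homeobox genes made up 6 of the 21, ZHX2, ZFHX2, PRRX2 and HOXC9 among them. They were 7.5% of members, beside 4 (2.44%) of the 164 and 0.942% of protein-coding genes tested. JUNB, a subunit of the AP-1 factor, had 105, 109 and 108 CPM with p65 2CS and 84.7, 94.5 and 89.7 CPM with p65 WT, against 46.5, 54.8 and 50.4 CPM with vector. Its 3 groups were all apart, in the order p65 2CS, p65 WT, vector, with a ratio between the forms of 1.18 (95% interval 1.106 to 1.26). HIVEP2, a zinc finger protein that binds kB-like sequences, had 83.5, 89.0 and 84.8 CPM with p65 2CS and 89.2, 85.9 and 82.3 CPM with p65 WT, against 60.5, 58.3 and 59.1 CPM with vector. Its means with the 2 forms were both 85.8 CPM and its libraries interleaved. The interferon regulatory factor genes IRF2 and IRF7, which act on interferon genes and their targets, were members as well. IRF7 had 18.5, 22.8 and 21.3 CPM with p65 2CS and 20.0, 19.5 and 17.6 CPM with p65 WT, against 11.1, 13.2 and 11.6 CPM with vector. IRF2 averaged 7.27 ± 0.838 CPM with p65 2CS and 6.91 ± 0.710 CPM with p65 WT, against 4.02 ± 0.399 CPM with vector (SD, n = 3). In both genes the p65 2CS and p65 WT libraries overlapped.

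IKZF3, which encodes the lymphoid zinc finger factor Aiolos, had 15.8, 16.04 and 17.9 CPM with p65 2CS and 17.5, 18.8 and 18.7 CPM with p65 WT, against 7.14, 6.497 and 7.53 CPM with vector. RFX2, a factor of ciliated cells, had 22.5, 19.8 and 20.2 CPM with p65 2CS and 20.9, 23.2 and 21.9 CPM with p65 WT, against 9.62, 9.18 and 9.60 CPM with vector. These were among the 10 members whose folds over vector reached at least 2 with both forms, and in each the p65 groups overlapped. ETV6, an ETS family repressor, averaged 14.6 ± 2.36 CPM with p65 2CS and 17.3 ± 1.07 CPM with p65 WT, against 8.40 ± 0.542 CPM with vector. ZHX2, a zinc finger and homeobox repressor, averaged 37.6 ± 0.241 CPM with p65 2CS and 32.5 ± 1.27 CPM with p65 WT, against 20.1 ± 1.27 CPM with vector, with its p65 2CS libraries all above its p65 WT libraries. FOXC2, a forkhead factor of mesenchyme and lymphatic vessels, averaged 31.5 ± 1.96 CPM with p65 2CS and 27.8 ± 0.681 CPM with p65 WT, against 19.0 ± 2.19 CPM with vector, again with all p65 2CS libraries above those of p65 WT. BNC1, a zinc finger gene of basal epithelium, averaged 2.13 ± 0.478 CPM with p65 2CS and 2.65 ± 0.372 CPM with p65 WT, against 1.21 ± 0.233 CPM with vector, and had the lowest ratio of the members, 0.804.

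Other members at high levels serve the cytoskeleton, calcium signalling and lipids. CDC42EP4, an effector of the GTPase CDC42, had 76.8, 79.7 and 81.2 CPM with p65 2CS and 94.1, 94.3 and 104 CPM with p65 WT, against 42.4, 40.6 and 43.8 CPM with vector. Its 3 groups were all apart, and the interval of its TMM-scaled ratio, 0.798 (95% interval 0.749 to 0.850), lay across the lower edge of the window. On mean CPM, which the rule used, the ratio was 0.814. RCAN1, an inhibitor of the phosphatase calcineurin, had 106, 110.2 and 107 CPM with p65 2CS and 106, 104 and 105 CPM with p65 WT, against 75.7, 73.1 and 75.9 CPM with vector. Its p65 libraries overlapped, and its fold over vector with p65 WT, 1.404, lay just inside the limit of 1.4. ELOVL7, which lengthens fatty acids, averaged 47.1 ± 1.79 CPM with p65 2CS and 55.6 ± 3.17 CPM with p65 WT, against 30.9 ± 1.76 CPM with vector, with p65 2CS below p65 WT in all libraries. Per unit of gene length (TPM, from the deposited gene lengths), SLC12A7 was also the highest of these with both p65 forms, at 469 TPM with p65 2CS, 436 with p65 WT and 67.3 with vector. IER3 followed at 238 TPM with p65 2CS, 262 with p65 WT and 146 with vector. JUNB had 222 TPM with p65 2CS, 180.3 with p65 WT and 102 with vector. NFKBIB had 113 TPM with p65 2CS, 109 with p65 WT and 69.9 with vector. These 3 stood below SLC12A7 with both p65 forms and above it with vector.

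The remaining large folds were found at low levels. MUC1, ADAMTS9 and SOWAHA also stood at low levels, with smaller folds over vector of only 1.452, 1.403 and 1.435. SKIDA1 averaged 7.32 ± 0.570 CPM with p65 2CS and 8.17 ± 1.29 CPM with p65 WT, against 2.94 ± 0.377 CPM with vector. CNKSR1, a scaffold of Ras signalling, averaged 6.42 ± 0.996 CPM with p65 2CS and 6.90 ± 0.222 CPM with p65 WT, against 2.91 ± 0.694 CPM with vector. LRRTM2, a synaptic adhesion protein, averaged 6.14 ± 0.979 CPM with p65 2CS and 7.23 ± 0.0786 CPM with p65 WT, against 3.14 ± 0.536 CPM with vector and was the only 1 of the 12 largest folds in which p65 2CS lay below p65 WT in all libraries. In SKIDA1 and CNKSR1 the p65 2CS and p65 WT libraries overlapped. PLIN1, a lipid droplet protein, averaged 2.37 ± 0.569 CPM with p65 2CS and 2.09 ± 0.715 CPM with p65 WT, against 0.984 ± 0.225 CPM with vector. GOLGA8K averaged 2.43 ± 0.313 CPM with p65 2CS and 2.30 ± 0.524 CPM with p65 WT, against 1.14 ± 0.217 CPM with vector, and as it belongs to a family of golgin genes with near-identical copies its level is uncertain. In both the p65 groups overlapped. MUC1, a membrane mucin, averaged 6.93 ± 1.17 CPM with p65 2CS and 8.58 ± 0.861 CPM with p65 WT, against 4.77 ± 0.599 CPM with vector. ADAMTS9, a matrix protease, averaged 3.58 ± 0.166 CPM with p65 2CS and 3.35 ± 0.122 CPM with p65 WT, against 2.39 ± 0.425 CPM with vector. SOWAHA averaged 9.19 ± 1.97 CPM with p65 2CS and 7.63 ± 0.629 CPM with p65 WT, against 5.31 ± 0.520 CPM with vector. These too overlapped between the p65 forms. In all, 36 of the 80 members had a vector mean under 5 CPM.

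Among members with other signalling roles, PDE9A, which breaks down cyclic GMP, averaged 23.2 ± 1.14 CPM with p65 2CS and 20.0 ± 0.768 CPM with p65 WT, against 11.8 ± 1.07 CPM with vector. ARRB1, which encodes a beta-arrestin that binds activated receptors, averaged 28.4 ± 0.984 CPM with p65 2CS and 28.7 ± 1.97 CPM with p65 WT, against 20.1 ± 1.92 CPM with vector. NUAK2, a kinase related to AMPK, averaged 14.6 ± 0.721 CPM with p65 2CS and 17.0 ± 3.15 CPM with p65 WT, against 8.17 ± 0.728 CPM with vector. The p65 2CS libraries lay wholly above the p65 WT libraries in PDE9A and overlapped them in ARRB1 and NUAK2. FZD10, a WNT receptor, averaged 4.30 ± 0.116 CPM with p65 2CS and 3.798 ± 0.270 CPM with p65 WT, against 2.06 ± 0.198 CPM with vector, with p65 2CS wholly above p65 WT. RASGRP1, an activator of Ras, had 8.05, 9.17 and 7.05 CPM with p65 2CS and 9.14, 7.94 and 8.60 CPM with p65 WT, against 4.92, 6.45 and 4.69 CPM with vector, and overlapped between the forms. SEMA4A (a semaphorin), ARHGAP24 (a GTPase-activating protein) and PLCL2 (a phospholipase C-like protein) were members with ratios of 0.825, 0.977 and 0.989.

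Of the members that act on DNA, HELB, a DNA helicase, averaged 41.9 ± 4.46 CPM with p65 2CS and 40.8 ± 3.78 CPM with p65 WT, against 27.6 ± 0.980 CPM with vector. RAD9B, a checkpoint clamp subunit, and APLF, a factor of DNA end joining, had ratios of 0.839 and 1.15. PARP8, of the poly-ADP-ribose polymerase family, averaged 35.1 ± 1.68 CPM with p65 2CS and 31.9 ± 0.733 CPM with p65 WT, against 21.9 ± 0.381 CPM with vector, with p65 2CS wholly above p65 WT. The deposited annotation places NOCT, nocturnin, in a class of other transcription factors. NOCT averaged 39.7 ± 2.64 CPM with p65 2CS and 35.1 ± 1.31 CPM with p65 WT, against 19.4 ± 2.37 CPM with vector. SALL1, a zinc finger factor of kidney development, averaged 13.7 ± 0.983 CPM with p65 2CS and 14.8 ± 1.395 CPM with p65 WT, against 9.33 ± 0.454 CPM with vector, and HNF4G, a nuclear receptor, averaged 6.68 ± 1.01 CPM with p65 2CS and 7.56 ± 0.797 CPM with p65 WT, against 4.26 ± 0.925 CPM with vector. NOCT stood wholly higher with p65 2CS than with p65 WT, while SALL1 and HNF4G overlapped between the forms. DRAM1, a lysosomal protein of autophagy, averaged 27.4 ± 2.91 CPM with p65 2CS and 29.6 ± 1.64 CPM with p65 WT, against 15.9 ± 1.87 CPM with vector. Other members, ZNF101, SP6, ZNF385C, GORAB, SLC16A5, FA2H, TXLNB, IGFN1, ELFN1, GRAMD2B, SPOCK2, TRABD2B, ADPRM, SHISA2, JHY and PDZRN3, all had overlapping p65 2CS and p65 WT libraries.

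Across the 80 members the fold over vector had a median of 1.65 with p65 2CS (range 1.41 to 6.82) and 1.68 with p65 WT (range 1.403 to 6.68), and in 28 members the smaller fold was at most 1.5. In the fit over all genes (edgeR quasi-likelihood test, adjusted p under 0.05), 79 members were called higher with p65 2CS than with vector, beside 12.1% of all 18195 genes tested, and 78 with p65 WT, beside 16.4%. Both calls were made in 77 members (background 5.9%), the exceptions being COLQ, BATF3 and PYGM. All 6 p65 libraries lay above the vector libraries in 7.01% of genes tested. These counts follow from the choice of members, and nothing is read from them. In either direction the fit called 23.4% of genes tested for p65 2CS against vector, 28.8% for p65 WT against vector and 31.2% between the forms. For p65 WT the calls over all genes were 2976 higher and 2268 lower, a split that became 2554 higher and 3659 lower under plain library totals in place of TMM factors. Exon bases were shared with another annotated gene in 31 members, and whether counting used the strand is not given, so reads of overlapping genes cannot be told apart there. AC093512.2 shares 49.2% of its length with ALDOA, and its level is uncertain.

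The ratio of p65 2CS to p65 WT had a median of 0.967 over the members on the CPM scale, with 47 below 1 and 33 above, beside a median of 1.03 over protein-coding genes tested. On TMM-scaled libraries the members' median was 0.947, with 49 below 1 and 31 above. Equality was known to different precision in different members: the 95% interval of the ratio stayed within the window of the rule (neither form under 0.8 times the other) in 27 members and reached past it in 53, and it left out 1 in 18. Of the 41 members with a p65 mean of at least 10 CPM the interval stayed within the window in 25, and of the 39 below that level in 2. For most of the low members, then, the libraries do not fix the ratio inside the window that chose them. The p65 2CS and p65 WT libraries overlapped in 63 members, p65 2CS lay wholly above in 9 (background 22.9% of all genes tested) and wholly below in 8 (background 19%). The same fit called 3 members higher with p65 2CS than with p65 WT (background 13.4%) and 6 lower (background 17.9%); since the rule used this ratio, nothing is read from these counts. JUNB, BMP2 and ZHX2 were the 3 and CDC42EP4, ETV6, IER3, ELOVL7, RNF207 and BIRC2 the 6, and under plain library totals the counts were 6 and 5. Without p65 WT library 4 they were 2 and 3.

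**Figure D2:**
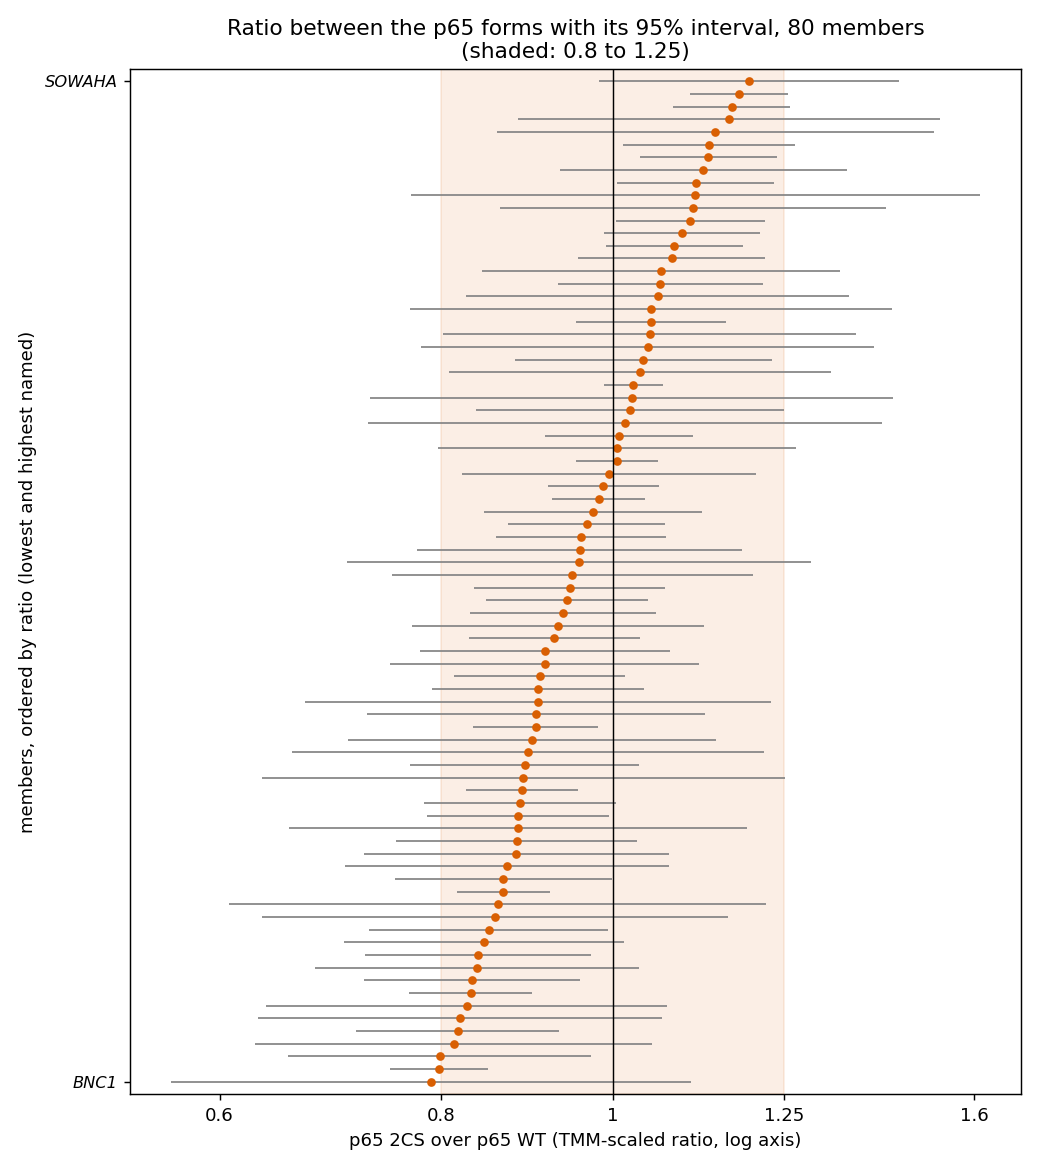
Ratio of p65 2CS to p65 WT (TMM-scaled, log axis) for each of the 80 members, ordered by the ratio, with its 95% interval as a line and the window of the rule shaded. The points run from 0.790 for BNC1 to 1.19 for SOWAHA, and 53 of the 80 intervals reach outside the shaded window.

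Members near each limit show how closely the rule was drawn. ADAMTS9 and RCAN1 lay just inside the fold limit at 1.403 and 1.404, and CASP10 and LACC1 just outside at 1.39. BNC1 and MUC1 lay just inside the lower ratio limit at 0.804 and 0.808, and LCA5L and S100A3 just outside at 0.798 and 0.799. SOWAHA and JUNB had the highest ratios inside, 1.205 and 1.201, and ZNF469 and GADD45B stood outside at 1.27 and 1.405. At the level limit, PTAFR and PLIN1 lay inside at 2.01 and 2.09 CPM and JPH2 and C3 outside at 1.84 and 1.83 CPM. Genes lay close together on both sides of the fold limit and of the lower ratio limit.

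Without the ratio limits, 249 protein-coding genes met the same rule for both forms: 164 had a ratio under 0.8, the 80 members lay in the window, and 5 stood higher with p65 2CS than the window allows. The median p65 WT fold over vector was 1.68 in the members, against 5.47 in the 164, 3 of which had no vector read and were ranked highest, and 1.63 in the 5. Protein-coding genes were also taken that met the fold and level limits with p65 WT and had all p65 WT libraries above all vector libraries. Among these the ratio lay in the window in 102 of 311 (32.8%) where the fold over vector was 1.4 to 1.75, in 32 of 218 (14.7%) at 1.75 to 2.5, in 5 of 149 (3.36%) at 2.5 to 5 and in 4 of 280 (1.43%) at 5 or more. The median ratio in these classes was 0.743, 0.616, 0.428 and 0.144. The p65 WT mean enters both the fold and the ratio, so that a gene left at vector level by p65 2CS has a lower ratio the larger its p65 WT fold. Both are also values the rule used, and nothing is read from this trend. Below a p65 WT fold of 1.75, a gene raised 1.4 times by p65 2CS cannot have a ratio under 0.8, so among genes raised by both forms the window could be missed on the low side only above it. Above it, 36 of the 202 genes raised by both were members, and at folds of at least 2.5 there were 6 of 141. SLC12A7 and TNFRSF9 were the 2 members with a p65 WT fold of 5 or more, where 88 other genes raised by both had a ratio under 0.8. With vector, the members had a median of 6.24 CPM, against 3.21 CPM in the 164 genes with the lower ratio and 28.6 CPM in protein-coding genes tested. The vector mean was under 1 CPM in 2.5% of members and 21.95% of the 164. Median gene length was 4693 bases in the members, 5169 in the 164 and 5081 over protein-coding genes tested.

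**Figure D3:**
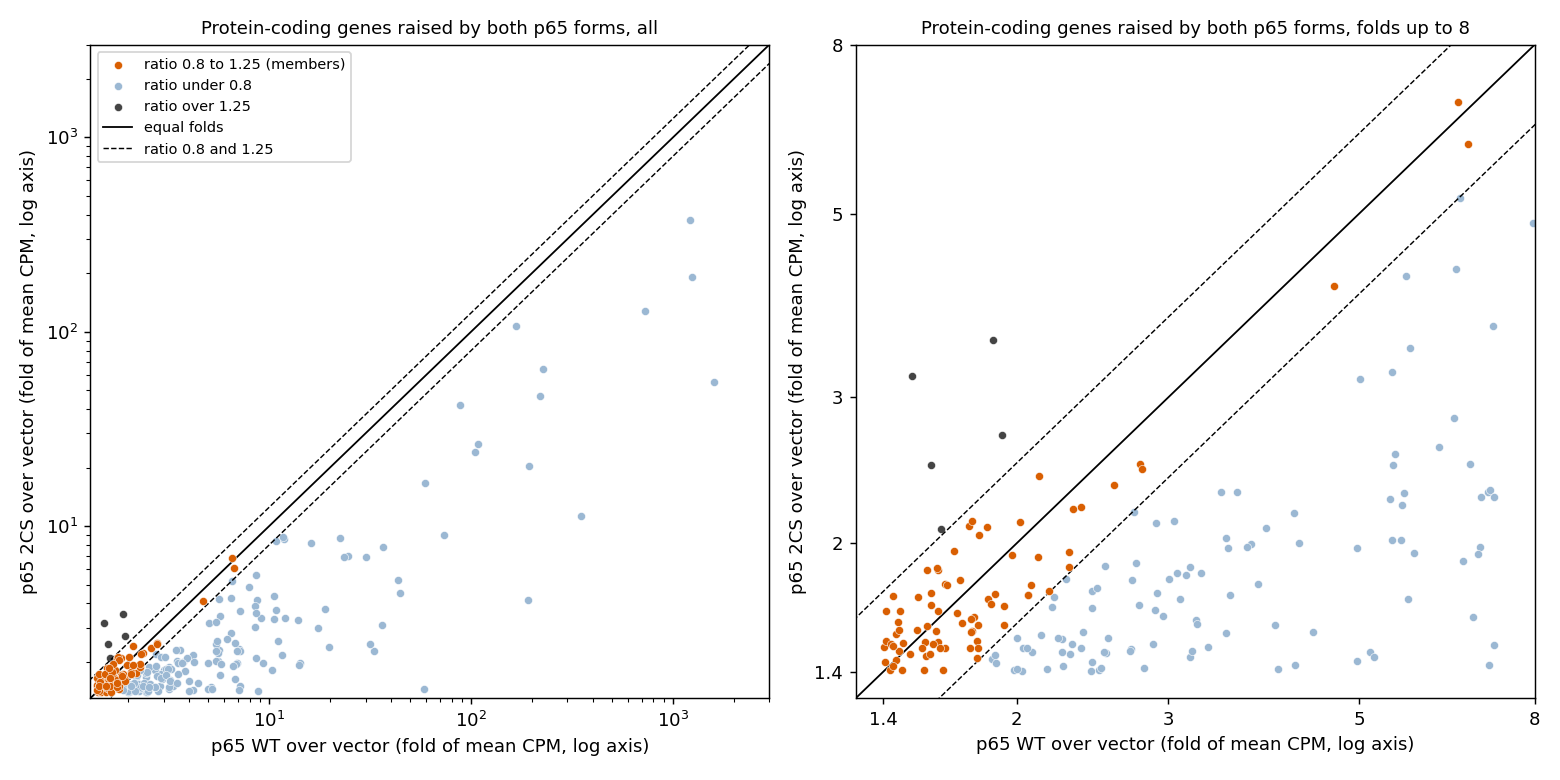
Fold over vector with p65 2CS (vertical) against the fold with p65 WT (horizontal), both of mean CPM on log axes, for 246 of the 249 protein-coding genes raised by both forms (3 had no vector read), in full on the left and up to 8-fold on the right. The solid line marks equal folds and the dashed lines the edges of the window, where 1 form stands at 0.8 times the other; all but 6 of the members lie at p65 WT folds below 2.5.

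**Figure D4:**
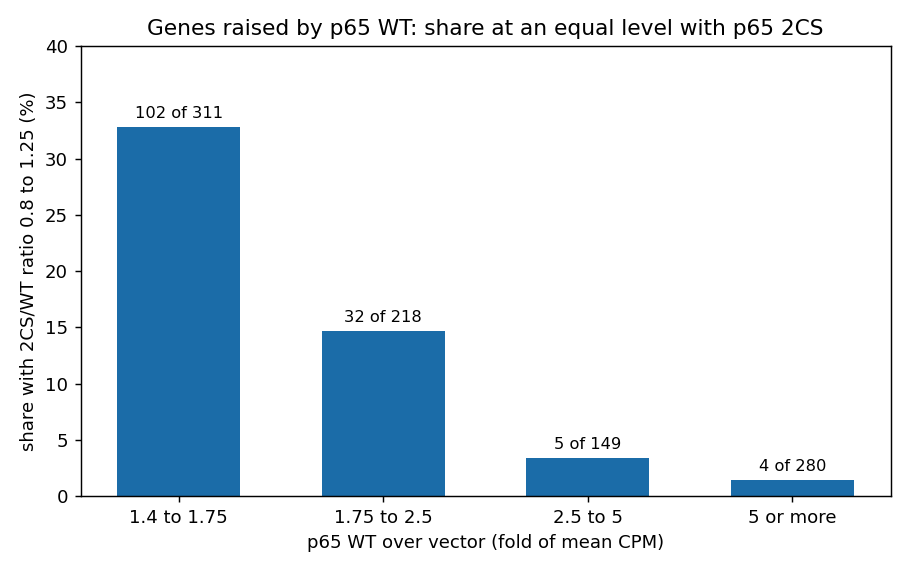
Share of protein-coding genes raised at least 1.4-fold and to at least 2 CPM by p65 WT whose p65 2CS over p65 WT ratio lay in the window, by the p65 WT fold over vector. Only genes with all p65 WT libraries above all vector libraries were taken. The bars start at 0 and stand at 32.8%, 14.7%, 3.36% and 1.43%, with the number of genes above each. The p65 WT mean enters both the fold and the ratio, so nothing is read from the decline.

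Gene lists of the NF-kB response are described next by counts and medians. Over all genes tested, 12.1% were called higher and 11.4% lower with p65 2CS than with vector, 16.4% higher and 12.5% lower with p65 WT than with vector, and 13.4% higher and 17.9% lower with p65 2CS than with p65 WT. Whether a list differs from these shares was not tested. Of 14 tested feedback inhibitors of NF-kB, 8 (57.1%) were called higher with p65 2CS than with vector and 11 (78.6%) with p65 WT than with vector, and 10 (71.4%) were called lower with p65 2CS than with p65 WT (median log2 difference -0.36, beside 0.0030 over all genes tested). NFKBIB was the member among them, and NFKBIA, NFKBIE, TNFAIP3 and BCL3 were raised by both with a ratio under 0.8. Of 11 tested chemokines 10 (90.9%) were called higher than vector with each form and 8 (72.7%) lower with p65 2CS than with p65 WT (median -1.85). CCL2 was the member, and CCL20, CXCL1, CXCL2, CXCL3, CXCL6 and CXCL8 had the lower ratio. Of 19 tested adhesion and receptor genes, 12 (63.2%) were called higher with p65 2CS and 16 (84.2%) with p65 WT than with vector, and 15 (78.9%) lower with p65 2CS than with p65 WT (median -0.98). TNFRSF9 was the member there, while ICAM1, VCAM1, SELE, CD40, CD69, CD70, CD83 and IL18R1 had the lower ratio. Of 13 tested survival genes 8 (61.5%) were called higher than vector with each form. Between the forms 2 (15.4%) were called higher with p65 2CS, near the share over all genes, and 6 (46.2%) lower (median -0.17). CFLAR, BIRC2 and IER3 were members, BIRC3 and TRAF1 had the lower ratio and GADD45B the higher one, with 431, 444 and 412 CPM with p65 2CS and 310.0, 301 and 305 CPM with p65 WT, against 163, 163 and 149 CPM with vector.

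The cytokine list held BMP2 as a member and CSF1, IL32 and TNF with the lower ratio. Of its 14 tested genes 8 (57.1%) were called lower and 1 (7.14%) higher with p65 2CS than with p65 WT. Of 21 tested genes of TNF receptor and IKK signalling, RIPK2 was a member and IKBKE and MAP3K8 had the lower ratio. In that list 4 (19.0%) were called higher and 5 (23.8%) lower with p65 2CS than with p65 WT, near the shares over all genes (median log2 difference 0.07). Of 32 tested immediate early transcription factors, JUNB was the member and MAFF was raised by both with a ratio under 0.8. With p65 2CS 2 (6.25%) of these were called higher and 12 (37.5%) lower than vector, and with p65 WT 6 (18.8%) higher and 17 (53.1%) lower. Between the forms 7 (21.9%) were called higher and 9 (28.1%) lower with p65 2CS. Of 27 tested interferon response genes, 10 (37.0%) were called higher than vector with p65 2CS and 16 (59.3%) with p65 WT, and 10 (37.0%) were called lower and 2 (7.41%) higher with p65 2CS than with p65 WT. IRF2 and IRF7 were members, and IFIH1, IFIT1, IRF1 and OAS3 had the lower ratio. The NF-kB subunits other than p65 (with REL and NFKB1 left out by name), MHC class I presentation genes, cytokine feedback genes and mRNA decay factors held no member, and NFKB2, RELB, TAP1, TAPBP, SOCS2, STAT5A and ZFP36 among them were raised by both with a ratio under 0.8. Lists of MAP kinase phosphatases, stress response, chaperones, p53 targets, chromatin regulators and TGF-beta, Notch and WNT feedback held neither a member nor another gene raised by both.

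Genes beside the members are those that the rule did not choose, though its limits were applied to each protein-coding gene among them. BIRC3, TNF, CCL20 and PTGES missed only its ratio limit, and EFNA1, near MUC1, was left out by name and was called higher than vector with both forms. The counts below are therefore a description. Within 100 kb of the start of 60 members lay the starts of 254 other tested genes, of which 56 (22%) were called lower with p65 2CS than with p65 WT, beside 17.9% of all genes tested, and 26 (10.2%) higher, beside 13.4%. The count of 26 was 15 without p65 WT library 4 and 17 without p65 2CS library 8. Against vector, 34 (13.4%) were called higher with p65 2CS, beside 12.1%, and 28 (11.0%) lower, beside 11.4%. With p65 WT, 59 (23.2%) were called higher than vector, beside 16.4%, and 17 (6.69%) lower, beside 12.5%. Scaling by library totals alone gave 49 higher and 35 lower for p65 WT, and 11 were lower without p65 WT library 4. Whether these shares differ from the background was not tested. The neighbours named next were picked after their values were seen.

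BIRC3, which encodes cIAP2, starts 29761 bases from BIRC2, which encodes its close relative cIAP1. BIRC3 had 7.12, 5.50 and 6.95 CPM with p65 2CS and 14.7, 16.6 and 13.3 CPM with p65 WT, against 2.38, 2.13 and 2.40 CPM with vector. Its p65 2CS libraries lay between vector and p65 WT without overlap, and its log2 difference between p65 2CS and p65 WT was -1.23 ± 0.13 (standard error, adjusted p = 2.56e-10, edgeR), beside -0.17 ± 0.05 for BIRC2. CCL20, a chemokine that starts 87.7 kb from the thiamine transporter gene SLC19A3, had 16.2, 19.3 and 16.3 CPM with p65 2CS and 147, 150.1 and 148 CPM with p65 WT, and no read with vector. Between the forms it differed by -3.12 ± 0.06 in log2 (adjusted p = 1.08e-33, edgeR), against 0.05 ± 0.18 for SLC19A3. TNF starts 80.7 kb from MICB and had 2.51, 2.27 and 2.16 CPM with p65 2CS and 12.1, 14.3 and 13.0 CPM with p65 WT, with 1 read over the vector libraries. Its log2 difference between the forms was -2.53 ± 0.17 (adjusted p = 3.92e-16, edgeR), beside -0.06 ± 0.08 for MICB.

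PTGES, which makes prostaglandin E2, starts 87.4 kb from the homeobox gene PRRX2 and had 24.0, 24.9 and 21.4 CPM with p65 2CS and 78.7, 72.0 and 88.6 CPM with p65 WT, against 3.46, 3.32 and 3.40 CPM with vector. The PTGES difference between the forms was -1.79 ± 0.07 in log2 (adjusted p = 4.43e-24, edgeR), beside -0.13 ± 0.14 for PRRX2. HOXC-AS2, a noncoding RNA on the strand opposite HOXC9 with its start 1890 bases away, had 2.92, 3.59 and 3.26 CPM with p65 2CS and 13.96, 13.1 and 15.1 CPM with p65 WT, against 1.95, 2.23 and 2.79 CPM with vector. HOXC9 itself averaged 16.7 ± 0.945 CPM with p65 2CS and 17.4 ± 0.326 CPM with p65 WT, against 11.9 ± 0.803 CPM with vector, and the log2 differences between the forms were -2.12 ± 0.15 for HOXC-AS2 (adjusted p = 1.48e-15, edgeR) and -0.09 ± 0.09 for HOXC9. The 2 genes share 163 exon bases, 9.71% of the length of HOXC9. JPH4, a junctophilin that starts 22.6 kb from the homeobox gene ZFHX2, had 1.108, 1.396 and 1.53 CPM with p65 2CS and 9.39, 6.69 and 10.8 CPM with p65 WT, against 0.865, 1.24 and 0.948 CPM with vector. Its p65 2CS and vector libraries overlapped, and between the forms it differed by -2.75 ± 0.21 in log2 (adjusted p = 4.09e-14, edgeR), beside -0.20 ± 0.10 for ZFHX2. In each of the pairs named so far the neighbour was lower with p65 2CS than with p65 WT while the member stood inside the window that chose it. The difference between the 2 genes of a pair was not tested. Other neighbours did not run this way. LTB, which encodes lymphotoxin beta, starts 87.6 kb from MICB and was called higher than vector with both forms, with a log2 difference between the forms of -0.46 ± 0.35 (adjusted p = 0.349, edgeR). NFKBIL1 and DDX39B, also near MICB, were called higher with p65 2CS than with p65 WT, by 0.34 in log2 for NFKBIL1 (adjusted p = 0.00103, edgeR) and 0.15 for DDX39B (adjusted p = 0.00054, edgeR).

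**Figure D5:**
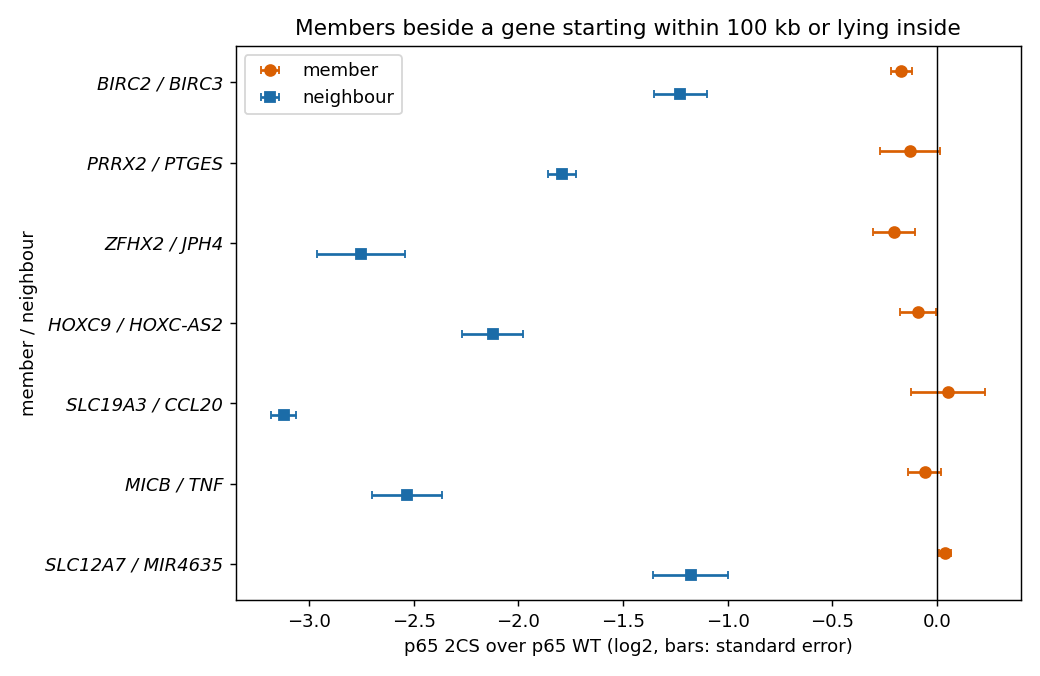
Log2 difference between p65 2CS and p65 WT (bars are standard errors) for 7 members (circles) and a gene starting near or lying inside each (squares), picked after their values were seen because they differ between the forms. The members lie between -0.20 for ZFHX2 and 0.05 for SLC19A3, and the neighbours between -3.12 for CCL20 and -1.18 for MIR4635, a microRNA gene inside SLC12A7.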

How the data were processed

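RNA was selected by poly-A and sequenced, per the labels' protocols, which name both a stranded and an unstranded library and do not settle the choice. The submitters' processing notes name HISAT2 2.0.5 as aligner. Not given in the sources used here are the counter, its strand setting and the build. What the authors deposited are raw counts per gene from 9 libraries. Starts, ends and strands of 58724 genes matched GENCODE 29 (GRCh38). CPM, TPM and the members were computed from the deposited counts, column totals and gene lengths. All genes were fitted with edgeR 4.0.16 in R 4.3.3 (TMM, expression filter, quasi-likelihood test, 3 groups in 1 fit, Benjamini-Hochberg adjusted p under 0.05, 18195 genes tested); intervals are 95% from that fit. DESeq2 1.42.0 was an alternative. The fit was tested on simulated counts. Library pairs within a group differed by more than sampling noise (chi-square per degree of freedom 1.91 to 2.64). Members and gene lists were chosen with earlier results of these data known. Named were the 12 largest folds, the 8 highest levels, members on 18 gene lists and genes at the limits; others named were chosen after their values were seen. Some members are not reported here by name.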

Additional observations from a re-analysis of the deposited data

How the results depend on the processing

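The number of members depended on the limits. It was 122 with a fold limit of 1.3, 37 with 1.6 and 48 when neither form could be under 0.9 times the other, and it ranged from 74 to 90 when each library was left out in turn. Scaling changed it to 90 with TMM and 96 with DESeq2 size factors (77 of the 80 kept under each) and to 93 without RELA in the totals (all 80 kept). BNC1, CDC42EP4 and MUC1 were lost with TMM and DESeq2 scaling. Under the 3 scalings and 9 leave-outs together, 44 of the 80 remained in every one. The noncoding count, 23, ranged from 19 to 27 over the leave-outs. Leave-outs gave 3231 to 3894 calls for p65 2CS against vector, 4493 to 4963 for p65 WT against vector and 4771 to 5356 between the forms, fewer than the 4263, 5244 and 5685 of the full set, each with fewer libraries. Genes called near members numbered 31 within 50 kb and 144 within 250 kb for p65 2CS against vector (49 to 60 over leave-outs), 37 and 164 for p65 WT against vector (62 to 79), and 43 and 194 between the forms (68 to 76), as the number of genes tested there changed. Tested were 126 genes within 50 kb and 592 within 250 kb. With p65 2CS against vector 11.9% and 13.9% were called higher (12.1% of all genes tested) and 12.7% and 10.5% lower (11.4%). With p65 WT against vector 23.8% and 19.6% were called higher (16.4%) and 5.56% and 8.11% lower (12.5%). Between the forms 6.35% and 10.5% were called higher with p65 2CS (13.4%) and 27.8% and 22.3% lower (17.9%). The share of promoters with a kB match was 6.85% over protein-coding genes tested in place of 5.91%. Of 609 alternative fold changes of the named members 1, a fold of p65 WT over vector, moved by more than 1 SD. A change of direction was looked for in folds over vector alone. The rule had fixed the direction of these, so nothing is read from finding none reversed. The 203 alternatives for p65 2CS over p65 WT were not checked for a change of direction. No paired analysis was possible because the groups share no replicate number. Low counts limit 39 members with a p65 mean under 10 CPM.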

Other observations

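Noncoding genes were outside the protein-coding limit, and 23 of them met the numeric part of the rule. PKN2-AS1, an antisense RNA, had 1.98, 2.75 and 2.42 CPM with p65 2CS and 2.84, 1.94 and 2.67 CPM with p65 WT, against 0.432, 0.298 and 0.391 CPM with vector. The pseudogene MYH16 had 3.27, 3.15 and 2.53 CPM with p65 2CS and 3.46, 2.502 and 3.09 CPM with p65 WT, against 0.811, 0.496 and 0.948 CPM with vector. In both, the p65 2CS and p65 WT libraries overlapped and lay above vector. AF117829.1, a long noncoding RNA whose start lies 20 bases from that of RIPK2 on the opposite strand, had 8.11, 8.66 and 6.05 CPM with p65 2CS and 9.45, 8.76 and 8.84 CPM with p65 WT, against 5.19, 5.605 and 5.47 CPM with vector. The other 20 had p65 means under 10 CPM.

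Genes lying inside the introns of members were looked at after the data were seen, and 4 that share no exon base with their member were tested. Of these, 2 were called lower and 0 higher with p65 2CS than with p65 WT, beside 17.9% and 13.4% of all genes tested. MIR4635, a microRNA gene inside SLC12A7, had 49, 79 and 55 reads with p65 2CS and 114, 97 and 111 reads with p65 WT, against 6, 10 and 9 reads with vector. Between p65 2CS and p65 WT it differed by -1.18 ± 0.18 in log2 (adjusted p = 1.22e-06, edgeR), while SLC12A7 differed by 0.04 ± 0.03. Its reads cannot be told apart from unspliced SLC12A7 RNA. AC016405.1, inside ZHX2, had 0, 1 and 2 reads with p65 2CS and 14, 25 and 27 reads with p65 WT, against 0, 1 and 1 reads with vector, and the forms differed with an adjusted p of 2.68e-07 (edgeR), higher with p65 WT in all 3 libraries. ZHX2 itself had 37.4, 37.5 and 37.9 CPM with p65 2CS and 32.9, 31.1 and 33.6 CPM with p65 WT, against 21.4, 20.1 and 18.9 CPM with vector. The other two ran the other way without a call: HOXC-AS1, inside HOXC9, differed between the forms by 0.54 ± 0.33 (adjusted p = 0.235, edgeR) and C17orf113, inside ZNF385C, by 0.10 ± 0.15 (adjusted p = 0.657, edgeR). AC016405.1 and C17orf113, like MIR4635, lie on the strand of their host, so their reads too cannot be told apart from unspliced host RNA. HOXC-AS1 lies on the strand opposite its host, and the strand setting of the counting is not given. The difference between host and inner gene was not tested.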
